A study of Homo sapiens with 6 samples.

Results

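Nascent transcription of 30 genes of cholesterol synthesis, sterol sensing and sterol uptake, transport and storage was followed in HCT116 cells, an established human colorectal carcinoma line, among 22984 genes listed on the sense strand. The genes were selected by name from the sterol pathway, with the RPKM folds of these same libraries already known, so their folds over DMSO, and the calls that edgeR and DESeq2 made on the same values, are given as a description, with no p-value for a single gene. The 30 genes are not the whole pathway. They comprise 9 genes of the route from acetyl-CoA to squalene, counting GGPS1, which branches off it. A further 11 turn squalene into cholesterol, 6 belong to the sterol-sensing machinery and 4 to uptake, transport and storage.

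Bru-seq counts reads of RNA labelled with bromouridine, here during a 30 min pulse at 2 mM, over the exons and introns of each gene, so it measures transcription rather than the pool of mature mRNA. The study asked which pathways respond to loss or inhibition of GSTO1, a glutathione transferase, and the 6 libraries were made from cells in medium with 10% fetal bovine serum. DMSO libraries 1 and 2 came from cells kept for 4 h in 0.01% DMSO. The others were 1 library each of cells with GSTO1 siRNA (siGSTO1, 10 nM, 24 h), with the GSTO1 inhibitor C1-27 at 1 μM for 24 h, with C1-27 at 1 μM for 4 h, and with C1-14 at 10 μM for 4 h, which the study used as an inactive analogue. No DMSO culture of 24 h and no culture with a non-targeting siRNA was analysed here, so in both 24 h libraries the agent cannot be told apart from the time in culture, and for siGSTO1 also not from transfection. Only DMSO had 2 libraries, and nothing in the descriptions says whether these were separate cultures, so any spread between them may be technical.

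Cells sense cholesterol in the membrane of the endoplasmic reticulum. SCAP escorts the precursor of the transcription factor SREBP2, the product of SREBF2, to the Golgi, where the site-1 and site-2 proteases (MBTPS1 and MBTPS2) release its active part, and when sterols are plentiful INSIG1 and INSIG2 hold SCAP back in the endoplasmic reticulum. Active SREBP2 raises transcription of the enzymes of cholesterol synthesis, and of SREBF2 and INSIG1 themselves, commonly together with the factors NF-Y and Sp1 at the same promoters.

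Sense counts per library were between 18112861 and 36841146. The labelled cell type was checked with 5 epithelial and 8 non-epithelial markers: EPCAM was transcribed at 2.91 to 3.89 RPKM (the reads of a gene over its length and the mapped reads of the library), KRT8 and KRT18 at 3.89 RPKM or more and CDH1 at 0.321 to 0.617 RPKM, whereas VIL1 did not exceed 0.00255 RPKM. The 8 fibroblast, endothelial and immune markers summed to 0.262 to 0.527 RPKM, most of it from COL1A1 and PECAM1, and CD3E was at 0 in every library. GSTO1 itself was at 3.51 and 3.72 RPKM in DMSO, 2.70 with siGSTO1, 4.21 and 3.78 with C1-27 at 24 h and 4 h, and 3.82 with C1-14. An siRNA acts on mature mRNA, so these nascent values are no direct check of the knockdown.

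Summed over the 30 genes, transcription was higher than in DMSO in both 24 h libraries and near the DMSO level in both 4 h libraries of treated cells. Single genes differed, with folds from 0.779 to 4.55 with siGSTO1 and from 0.936 to 3.46 with C1-27 at 24 h. Over all 30 genes, summed transcription was 28.0 and 26.5 RPKM in the DMSO libraries, 43.0 with siGSTO1, 42.5 with C1-27 at 24 h, 27.5 with C1-27 at 4 h and 28.8 with C1-14. The median gene stood at 1.62 times the DMSO mean with siGSTO1, 1.54 times with C1-27 at 24 h, 1.02 times with C1-27 at 4 h and 1.05 times with C1-14. A lower share of cells that transcribe a gene and less nascent RNA per cell cannot be told apart in such bulk libraries. Over the 14431 genes with at least 10 counts in at least 2 libraries, which include all 30, the medians were 1.09, 1.03, 0.966 and 0.985. With siGSTO1 22 of the 30 genes lay above both DMSO libraries (47.7% of the 14431 genes did), with C1-27 at 24 h 25 (38.3%), with C1-27 at 4 h 12 (19.1%) and with C1-14 13 (24.3%). Nothing is read from these medians and counts, since the genes were picked with the folds known.

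**Figure D1:**
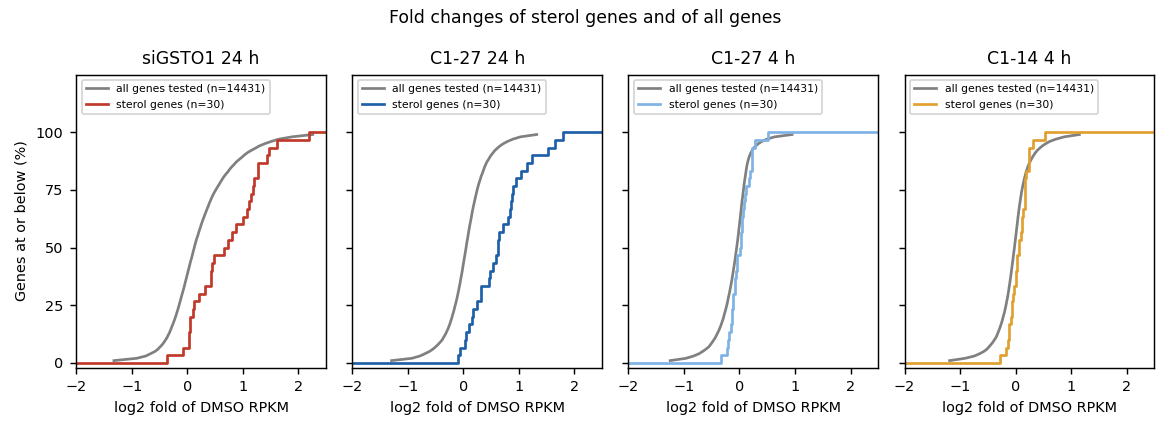
Cumulative share of genes (vertical axis, %) at or below a given log2 fold of the mean DMSO RPKM (horizontal axis), for the 30 sterol genes (coloured steps) and the 14431 genes tested (grey, percentiles 1 to 99), with 1 panel per treated library. The sterol genes lie to the right of the grey curve in both 24 h panels, with medians of 1.62 and 1.54 against 1.09 and 1.03, and close to it in both 4 h panels.

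A gene was called by fold when it spanned over 300 bp, when the mean of its treated and control RPKM was above 0.5, and when the treated RPKM was at least 1.4 times the DMSO mean or at most its inverse. These limits are those of the study. With siGSTO1, 23 of the 30 genes passed the limit on RPKM, and 11 of them were called higher, namely IDI1, GGPS1, FDFT1, CYP51A1, MSMO1, DHCR7, SREBF2, INSIG1, MYLIP, NPC1 and STARD4. Of all genes past the same limits 10.5% were called higher. The same 11 genes also passed 1.4-fold against each DMSO library alone, as 6.49% of all genes did. None was called lower, against 6.48% of all genes. With C1-27 at 24 h, 24 genes passed the limit and 13 were called higher, namely ACAT2, HMGCS1, IDI1, GGPS1, FDFT1, SQLE, MSMO1, SC5DL, DHCR7, SREBF2, INSIG1, NPC1 and STARD4, where 3.23% of all genes were. Against each DMSO library alone 12 of these 13 were called, all but ACAT2 (1.89% of all genes), and none was called lower (3.49%). Nothing is read from these shares, since the genes were picked with the folds known.

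At 4 h a single gene was called in each library. With C1-27 it was STARD4 at 1.42-fold (0.457% of all genes were called higher and 2.22% lower), and with C1-14 it was IDI1 at 1.44-fold (3.71% higher and 1.01% lower). In each of these libraries 22 genes passed the limit on RPKM and none was called lower. The STARD4 call rests on DMSO library 1, since against DMSO library 2 alone no sterol gene was called with C1-27 at 4 h.

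edgeR's quasi-likelihood test with Benjamini-Hochberg adjustment was fitted over the 14431 genes in all 6 libraries, with the DMSO pair as its only measure of replicate spread. At an adjusted p-value under 0.05 it called 5 sterol genes with siGSTO1, all higher (FDFT1, SREBF2, INSIG1, MYLIP and STARD4), where 3.69% of all genes were called higher and 1.21% lower. With C1-27 at 24 h it called 4, all higher (FDFT1, MSMO1, INSIG1 and STARD4), where 0.194% of all genes were called higher and 0.166% lower. At an unadjusted p-value under 0.05 edgeR put 15 sterol genes higher with siGSTO1 (10% of all genes) and 12 with C1-27 at 24 h (2.34%). DESeq2 called FDFT1 and INSIG1 in both 24 h libraries and no other of the 30 (1.07% of all genes with an adjusted p-value were called higher with siGSTO1 and 0.0693% with C1-27 at 24 h). With C1-27 at 4 h (0.0208% of all genes called higher, 0% lower) and with C1-14 (0.132% higher, 0.00693% lower) neither edgeR nor DESeq2 called any of the 30, and the number at an unadjusted p-value under 0.05 was 0 with both tools. In either direction that unadjusted limit was passed by 0.797% of all genes in edgeR and 0.125% in DESeq2 with C1-27 at 4 h, and by 1.61% and 0.575% with C1-14. Nothing is read from the calls of the 30 genes, which use the same treated and DMSO values that were known when the genes were picked. The log2 fold changes with standard errors (SE) below come from this fit.

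**Figure D2:**
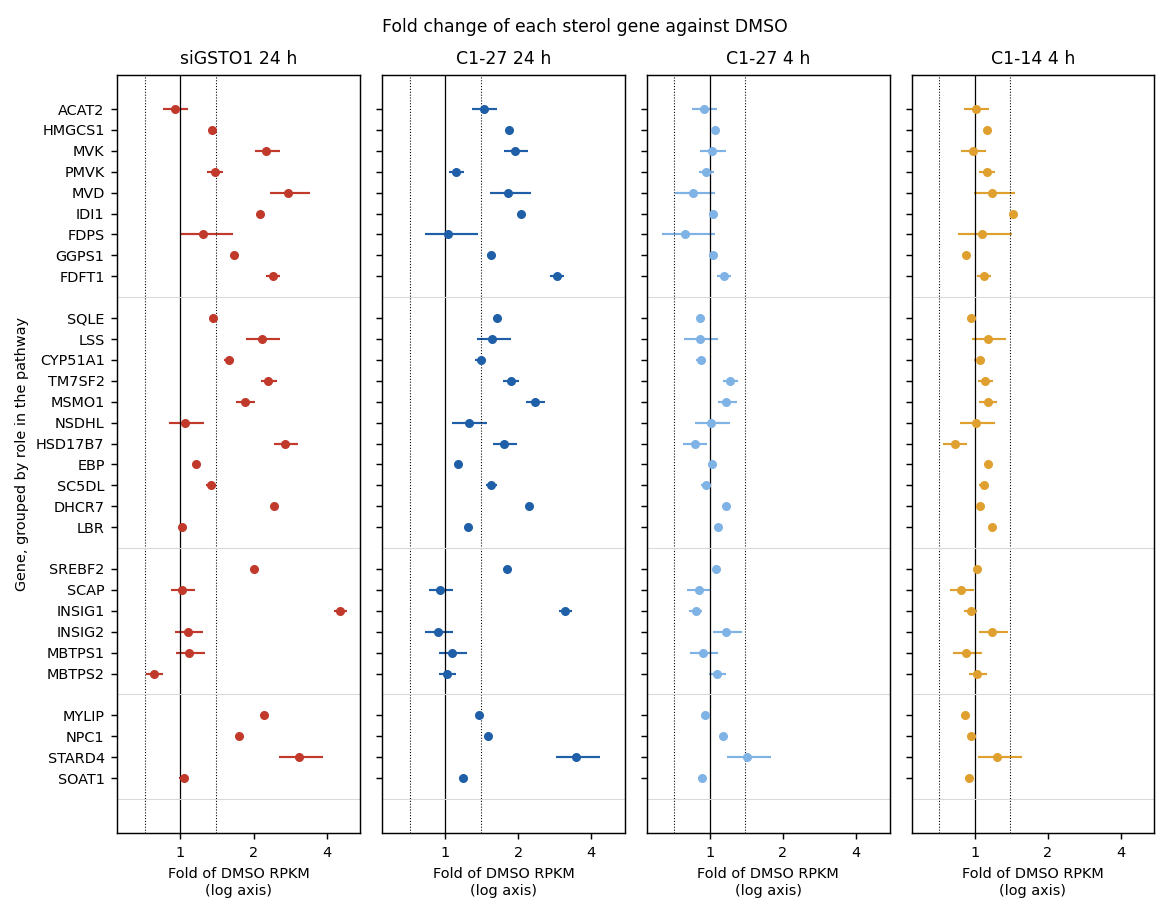
Fold of the DMSO RPKM (horizontal log axis) of each sterol gene in the 4 treated libraries. Points are folds over the mean of both DMSO libraries, lines join the folds over each DMSO library alone, the solid vertical line marks 1 and the dotted lines mark 1.4 and its inverse. INSIG1 at 4.55-fold with siGSTO1 and STARD4 at 3.46-fold with C1-27 at 24 h lie farthest to the right, and most points of both 4 h panels lie between the dotted lines.

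The first 9 genes are those of the route from acetyl-CoA to squalene, counting GGPS1, which branches off it and does not make squalene. Their summed transcription was 8.24 and 6.83 RPKM in DMSO, 12.2 with siGSTO1, 12.7 and 7.34 with C1-27 at 24 h and 4 h, and 8.26 with C1-14. At 1.4-fold or more, whatever their level, were 5 of them with siGSTO1 (26.2% of the 14431 genes) and 7 with C1-27 at 24 h (10.4%). FDFT1 (squalene synthase, chr8:11660190-11696818 in hg19), the enzyme that commits farnesyl units to sterols, was at 0.824 and 0.721 RPKM in the DMSO libraries, 1.86 with siGSTO1, 2.23 and 0.878 with C1-27 at 24 h and 4 h, and 0.844 with C1-14. Both 24 h libraries stood clear of the other 4, which did not exceed 0.878 RPKM. FDFT1 was at 2.41-fold with siGSTO1 (edgeR log2 fold change 1.16 ± 0.26, SE) and 2.89-fold with C1-27 at 24 h (1.48 ± 0.25, SE).

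IDI1, the isomerase that makes dimethylallyl diphosphate, was at 0.874 and 0.840 RPKM in DMSO, 1.82 with siGSTO1, 1.77 and 0.886 with C1-27 at 24 h and 4 h, and 1.24 with C1-14. All treated libraries lay above both DMSO libraries, that of C1-27 at 4 h only just. GGPS1, which makes geranylgeranyl diphosphate for protein prenylation, was at 1.25 and 1.18 RPKM in DMSO, 2.03 with siGSTO1, 1.87 and 1.25 with C1-27 at 24 h and 4 h, and 1.12 with C1-14, so the 24 h libraries lay well above the other 4. HMGCS1, the cytosolic HMG-CoA synthase, had DMSO values of 1.57 and 1.59 RPKM and reached 2.13 with siGSTO1 and 2.90 with C1-27 at 24 h, or 1.35-fold and 1.84-fold, against 1.66 at 4 h and 1.76 with C1-14.

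ACAT2, the cytosolic thiolase that starts the pathway, differed in its pattern: 0.754 and 0.595 RPKM in DMSO, 0.639 with siGSTO1, 0.974 and 0.638 with C1-27 at 24 h and 4 h, and 0.683 with C1-14. Only the C1-27 library of 24 h lay outside the DMSO pair. At its ends ACAT2 overlaps TCP1 and LOC100129518 on the opposite strand, by 558 and 376 bp. Mevalonate kinase (MVK) and the decarboxylase MVD were weakly transcribed and below the limit on RPKM in every comparison with DMSO, and both passed it between the 24 h libraries. MVK was at 0.294 and 0.232 RPKM in DMSO, 0.595 with siGSTO1, 0.510 and 0.269 with C1-27 at 24 h and 4 h, and 0.258 with C1-14. MVD was at 0.311 and 0.211 RPKM in DMSO, 0.724 with siGSTO1, 0.476 and 0.223 with C1-27 at 24 h and 4 h, and 0.308 with C1-14. Both had their highest values in the 24 h libraries. PMVK, the next kinase, stayed between 0.160 and 0.239 RPKM. FDPS, the farnesyl diphosphate synthase, was at 2.17 and 1.31 RPKM in DMSO, and all 4 treated libraries (2.16, 1.79, 1.38 and 1.86) fell between these values.

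**Figure D3:**
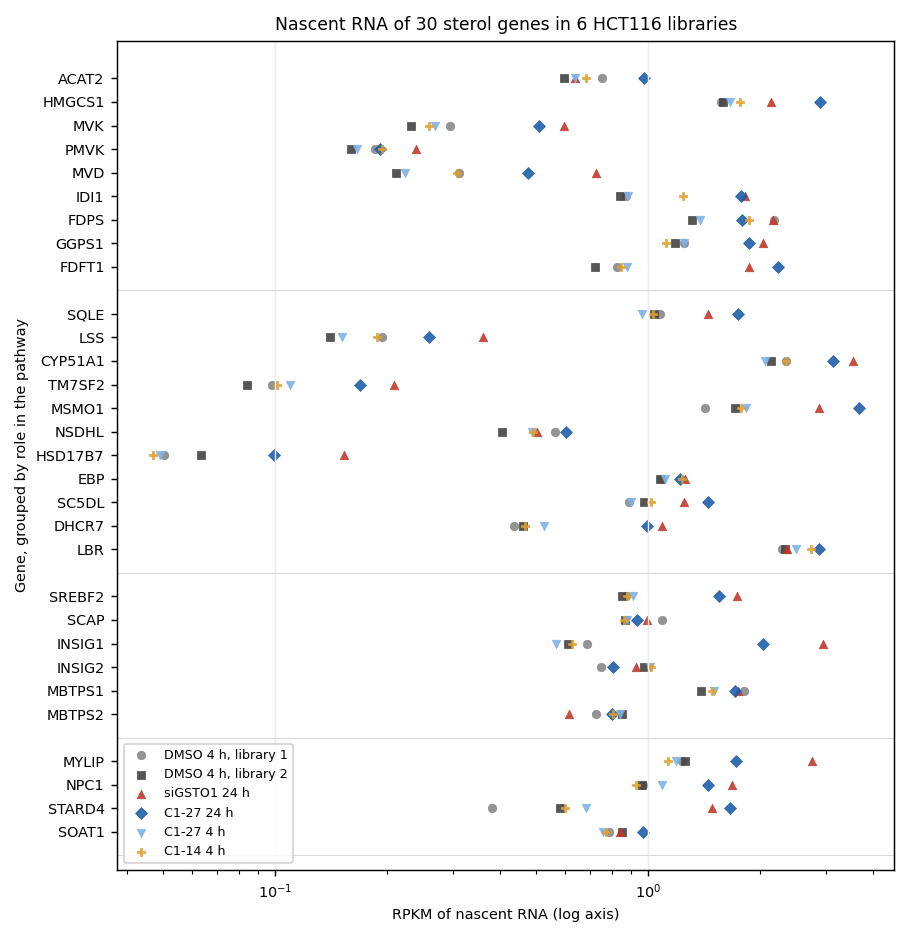
RPKM (horizontal log axis) of each of the 30 sterol genes in the 6 libraries, with genes grouped from top to bottom as squalene synthesis (with GGPS1), squalene to cholesterol, sterol sensing, and uptake, transport and storage. Symbols mark the libraries. For INSIG1, STARD4, FDFT1, DHCR7 and SREBF2 the siGSTO1 triangle and the dark C1-27 24 h diamond lie apart from the other 4 symbols, and for SCAP, SOAT1 and FDPS they do not.

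Squalene is then oxidised, cyclised and trimmed to cholesterol by the products of 11 further genes, which summed to 10.5 and 10.4 RPKM in DMSO, 15.1 with siGSTO1, 16.2 and 10.7 with C1-27 at 24 h and 4 h, and 11.4 with C1-14. At 1.4-fold or more, whatever their level, were 6 of them with siGSTO1 (26.2% of the 14431 genes) and 7 with C1-27 at 24 h (10.4%). MSMO1 (chr4:166248818-166264314 in hg19), the methylsterol monooxygenase that strips methyl groups from early sterols, was at 1.42 and 1.71 RPKM in DMSO, 2.88 with siGSTO1, 3.68 and 1.83 with C1-27 at 24 h and 4 h, and 1.77 with C1-14. It was at 2.35-fold with C1-27 at 24 h (edgeR log2 fold change 1.17 ± 0.26, SE) and at 1.84-fold with siGSTO1 (0.76 ± 0.27, SE), without an edgeR call there.

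DHCR7, a reductase of the last steps, was at 0.436 and 0.462 RPKM in DMSO, 1.09 with siGSTO1, 0.991 and 0.527 with C1-27 at 24 h and 4 h, and 0.469 with C1-14. Its folds of 2.43 and 2.21 in the 24 h libraries were among the highest of the group, yet edgeR did not call it (log2 fold changes 1.16 ± 0.39 and 1.08 ± 0.37, SE). CYP51A1, the lanosterol demethylase and the most strongly transcribed of the 30 genes with siGSTO1, was at 2.35 and 2.14 RPKM in DMSO, 3.54 with siGSTO1, 3.13 and 2.06 with C1-27 at 24 h and 4 h, and 2.35 with C1-14. SQLE, the squalene epoxidase, was at 1.08 and 1.04 RPKM in DMSO, 1.45 with siGSTO1, 1.74 and 0.966 with C1-27 at 24 h and 4 h, and 1.03 with C1-14. SC5DL, the lathosterol desaturase now named SC5D, was at 0.891 and 0.976 RPKM in DMSO, 1.25 with siGSTO1, 1.45 and 0.900 with C1-27 at 24 h and 4 h, and 1.02 with C1-14. All 3 of these genes had both 24 h libraries above the other 4.

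The calls near the limit of 1.4-fold were as follows. With siGSTO1 the genes just inside it were CYP51A1 (1.58), GGPS1 (1.67) and NPC1 (1.74). Those just outside were PMVK (1.39), SQLE (1.36) and HMGCS1 (1.35), of which PMVK was also under the limit on RPKM and could not be called. With C1-27 at 24 h ACAT2 (1.44), NPC1 (1.5) and GGPS1 (1.54) were just inside, and CYP51A1 (just under 1.4), MYLIP (1.38) and NSDHL (1.25) just outside. Of the genes called in only 1 of the 24 h libraries, ACAT2 alone was below the DMSO mean in the other.

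The lanosterol synthase LSS, TM7SF2 and HSD17B7 were too weakly transcribed for the limit on RPKM. LSS was at 0.193 and 0.140 RPKM in DMSO, 0.360 with siGSTO1, 0.259 and 0.151 with C1-27 at 24 h and 4 h, and 0.188 with C1-14. TM7SF2, another sterol reductase, had only 10 to 34 counts per library. HSD17B7 had 26 to 101 counts, and since it has near-identical pseudogene copies its folds of 2.70 and 1.75 in the 24 h libraries are uncertain. The other genes of these steps moved little: the isomerase EBP was at 1.08 to 1.26 RPKM, LBR, a sterol reductase that is also the lamin B receptor, at 2.28 to 2.87, and the dehydrogenase NSDHL at 0.405 to 0.604 in the 6 libraries.

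**Figure D4:**
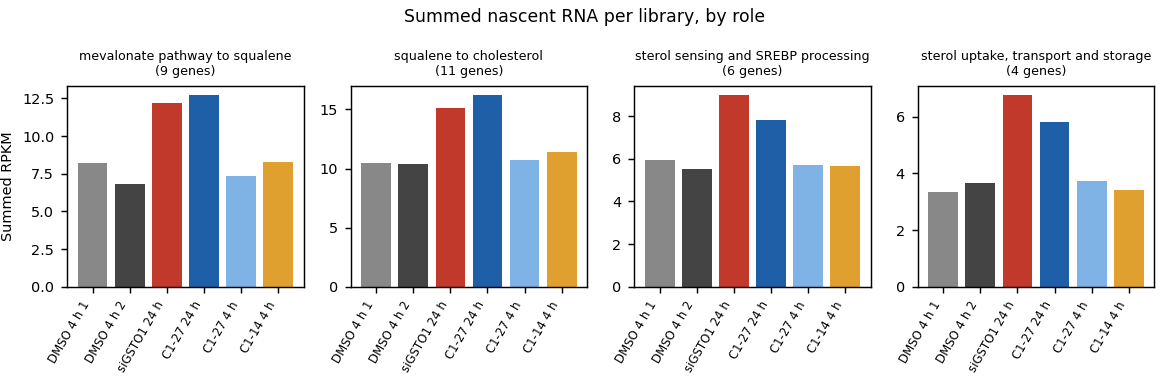
Summed RPKM (vertical axis, from 0, with its own scale in each panel) of the genes of each role in the 6 libraries, with 1 bar per library and 1 panel per role. In every panel the siGSTO1 and C1-27 24 h bars are the tallest, at 12.2 and 12.7 for squalene synthesis (with GGPS1), 15.1 and 16.2 for squalene to cholesterol, 8.97 and 7.83 for sterol sensing, and 6.75 and 5.80 for uptake, transport and storage.

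The 6 genes of the sterol-sensing machinery differed in their values. INSIG1 (chr7:155089486-155101945 in hg19), which retains SCAP, was at 0.688 and 0.610 RPKM in DMSO, 2.95 with siGSTO1, 2.03 and 0.566 with C1-27 at 24 h and 4 h, and 0.624 with C1-14. The 4 h libraries spanned 0.566 to 0.688 RPKM, and both 24 h values were far outside that range. INSIG1 was at 4.55-fold with siGSTO1, the highest fold of the 30 genes there (edgeR log2 fold change 2.08 ± 0.33, SE), and 3.13-fold with C1-27 at 24 h (1.60 ± 0.33, SE).

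SREBF2 (chr22:42229106-42302375 in hg19) was at 0.874 and 0.85 RPKM in DMSO, 1.73 with siGSTO1, 1.55 and 0.910 with C1-27 at 24 h and 4 h, and 0.878 with C1-14. SREBF2 was at 2.01-fold with siGSTO1 (0.90 ± 0.24, SE) and at 1.8-fold with C1-27 at 24 h (0.80 ± 0.24, SE), without an edgeR call. The microRNA gene MIR33A lies inside it on the same strand and takes up 69 bp, which were left out of its counted length. The other genes of the machinery were not called in any comparison with DMSO. SCAP was at 0.863 to 1.09 RPKM, INSIG2 at 0.748 to 1.02, MBTPS1 at 1.39 to 1.81 and MBTPS2 at 0.614 to 0.853, and the DMSO pair alone covered 0.867 to 1.09 for SCAP and 1.39 to 1.81 for MBTPS1. MBTPS2 with siGSTO1, at 0.779-fold, was the only value among the 30 genes below both DMSO libraries at 24 h. INSIG1 and INSIG2, which share the role of retaining SCAP, thus had values of 4.55 and 1.07-fold with siGSTO1, and 3.13 and 0.936-fold with C1-27 at 24 h.

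Of the 4 genes of uptake, transport and storage, STARD4 (chr5:110834022-110848157 in hg19), which carries cholesterol between membranes through the cytosol, was at 0.381 and 0.581 RPKM in DMSO, 1.48 with siGSTO1, 1.66 and 0.683 with C1-27 at 24 h and 4 h, and 0.598 with C1-14. The DMSO libraries themselves differed 1.52-fold, more than for any other of the 30 genes in that direction. STARD4 was at 3.07-fold with siGSTO1 (1.47 ± 0.35, SE) and 3.46-fold with C1-27 at 24 h (1.70 ± 0.34, SE), and both 24 h libraries lay above the highest of the others by more than the DMSO gap.

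MYLIP (chr6:16129317-16148478 in hg19), the ubiquitin ligase also known as IDOL, which marks lipoprotein receptors for degradation and is known as a target of the liver X receptors, was at 1.23 and 1.26 RPKM in DMSO, 2.76 with siGSTO1, 1.72 and 1.19 with C1-27 at 24 h and 4 h, and 1.13 with C1-14. Its folds were 2.21 with siGSTO1 (1.03 ± 0.28, SE) and 1.38 with C1-27 at 24 h (0.41 ± 0.28, SE). NPC1, which lets cholesterol out of lysosomes, was at 0.968 and 0.962 RPKM in DMSO, 1.68 with siGSTO1, 1.45 and 1.09 with C1-27 at 24 h and 4 h, and 0.928 with C1-14. Its DMSO values were nearly the same, and the siGSTO1 value and both C1-27 values lay above them. SOAT1, which esterifies cholesterol for storage, stayed between 0.757 and 0.969 RPKM in all 6 libraries.

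The 2 times of C1-27 share the dose of 1 μM. Between them 14 of the 24 sterol genes past the limit on RPKM were at least 1.4 times higher at 24 h (5.16% of all genes) and none lower (1.61%). Without that limit 19 of the 30 were, where 16.4% of the 14431 genes were. The median ratio was 1.53 over the 30 genes and 1.08 over the 14431. Nothing is read from these counts and medians, since the folds of both libraries were known when the genes were picked. INSIG1 had the highest ratio at 3.58 (95% interval 3.14 to 4.10), then FDFT1 at 2.54 (2.38 to 2.71) and STARD4 at 2.43 (2.16 to 2.75). INSIG2, at 0.801 (0.726 to 0.883), was the only gene besides MBTPS2 (0.951, 0.885 to 1.02) with a ratio under 1. These intervals are exact Clopper-Pearson intervals of the counts of 2 libraries, so they cover counting error only, and since each time had 1 library they compare these libraries and not the times. For PMVK, TM7SF2, EBP and MBTPS2 the intervals included 1.

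**Figure D5:**
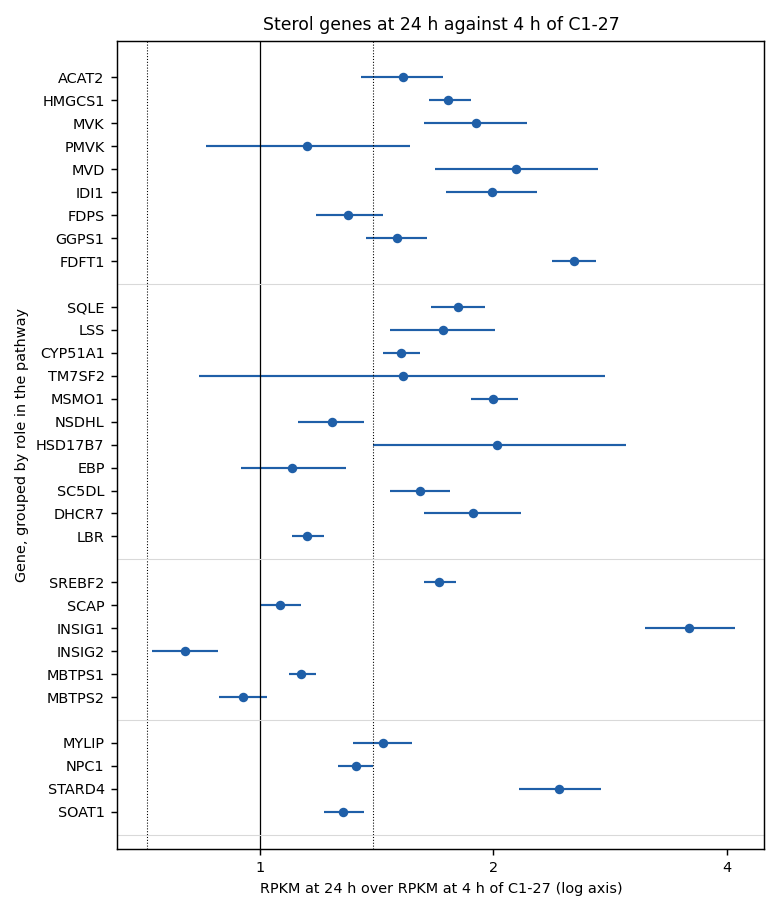
Ratio of RPKM at 24 h to RPKM at 4 h of C1-27 (horizontal log axis) for each sterol gene, grouped by role. Points are the ratios, lines their 95% counting intervals, the solid vertical line marks 1 and the dotted lines mark 1.4 and its inverse. INSIG1 at 3.58 lies farthest to the right, and SCAP, INSIG2, MBTPS1 and MBTPS2 lie between the dotted lines.

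Set beside each other at 24 h, siGSTO1 and C1-27 put 16 and 18 of the 30 genes at 1.4-fold or more over the shared DMSO libraries with no limit on RPKM, where 26.2% and 10.4% of the 14431 genes were. Both comparisons share their DMSO libraries, so no overlap of their genes is counted. Side by side, the folds with siGSTO1 and with C1-27 at 24 h were 2.12 and 2.06 for IDI1, 2.41 and 2.89 for FDFT1, 2.43 and 2.21 for DHCR7, 4.55 and 3.13 for INSIG1, 2.21 and 1.38 for MYLIP, and 0.948 and 1.44 for ACAT2. In the direct ratio of the 2 libraries, 26 sterol genes passed the limit on RPKM. The siGSTO1 library was at least 1.4 times higher at 3 of them (8.73% of all genes), MVD at 1.52 (95% interval 1.26 to 1.84), INSIG1 at 1.46 (1.34 to 1.59) and MYLIP at 1.60 (1.49 to 1.73). It was lower at 1 (4.60%), ACAT2 at 0.657 (0.571 to 0.753). The median ratio over the 30 genes was 1.08, and over the 14431 genes 1.05. Treatment by siRNA and by compound differ in kind and each had 1 library, so this too compares 2 libraries. The folds of both were known when the genes were picked, so nothing is read from these counts.

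C1-27 and C1-14 were both applied for 4 h, but at 1 μM and 10 μM, so their values are only given side by side. IDI1 was at 1.03-fold with C1-27 and 1.44-fold with C1-14, FDPS at 0.791 and 1.07, MVD at 0.853 and 1.18, STARD4 at 1.42 and 1.24, INSIG1 at 0.873 and 0.962, SREBF2 at 1.06 and 1.02, and FDFT1 at 1.14 and 1.09. Over the 30 genes the folds ran from 0.791 to 1.42 with C1-27 and from 0.828 to 1.44 with C1-14.

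The 2 DMSO libraries give the scale of differences without treatment. Of the 21 sterol genes past the limit on RPKM, none was at least 1.4 times higher in library 2 than in library 1 (2.84% of all genes) and 1 was lower (16.3%), FDPS at 0.604. The median ratio over the 30 genes was 0.965, with a range of 0.604 to 1.52. How the libraries are scaled matters most for siGSTO1: the median log2 fold of genes past the limit on RPKM was -0.00 by RPKM, -0.11 with edgeR's TMM factors and -0.15 with DESeq2's size factors. With TMM, NSDHL, LBR, SCAP, INSIG2 and SOAT1, which were at 1.02 to 1.07-fold by RPKM with siGSTO1, turned to log2 fold changes between -0.02 and -0.08.

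Genes of neighbouring pathways were counted by the same limits. By these, 10.5% of all genes were called higher and 6.48% lower with siGSTO1, and 3.23% and 3.49% with C1-27 at 24 h. At 4 h the shares were 0.457% and 2.22% with C1-27, and 3.71% and 1.01% with C1-14. Genes under the limit on RPKM could not be called by fold, however far from 1 they lay. Of 14 genes of the isoprenoid branch and protein prenylation 12 passed it in each 24 h library and 11 with either compound at 4 h. None was called higher in any treated library, and COQ2, a ubiquinone enzyme, was called lower with siGSTO1 (0.693-fold). PDSS1 (0.730) and RABGGTA (1.5, under the limit on RPKM) also lay away from 1 with siGSTO1. Of 19 genes of sterol transport, efflux and esterification 12 passed the limit on RPKM in each treated library. STARD3NL was called higher with siGSTO1 (1.45-fold). CAV1, the caveolin of cholesterol-rich caveolae, was lower with siGSTO1 (0.263-fold, called by edgeR too), and the cholesteryl ester hydrolase NCEH1 was lower with siGSTO1 (0.652) and C1-27 at 24 h (0.598). GRAMD1B, a sterol carrier at membrane contacts, was at 0.116 and 0.1 RPKM in DMSO, 0.285 with siGSTO1 and 0.261 with C1-27 at 24 h, and edgeR called it higher in both. ABCG1, a sterol exporter, had a large fold with siGSTO1 (4.48) from very low levels, 0.00219 and 0.00251 RPKM in DMSO and 0.0105 with siGSTO1. CAV1 differed between the DMSO libraries themselves, at 7.30 and 15.1 RPKM. Of 15 accessory sensors, degradation factors and oxysterol genes, 10 passed the limit on RPKM with siGSTO1 and 9 in each other treated library. PGRMC1 with C1-14 (1.42-fold) was the only gene called. The folds farthest from 1 with siGSTO1 in that list were those of CYP27A1 (1.47) and USP20 (1.41), both under the limit on RPKM, and NR1H2 (1.25).

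The last list held 9 fatty acid genes that SREBP factors also drive. With siGSTO1 8 of them passed the limit on RPKM and 6 were called higher by fold (10.5% of all genes). These were SREBF1, SCD, FASN, ACSS2, ELOVL6 and LPIN1, with edgeR calling SREBF1, SCD and LPIN1 higher (3.69% of all genes). With C1-27 at 24 h 7 passed the limit and 3 were called higher (3.23%), namely SCD, LPIN1 and ME1. There edgeR called SCD and LPIN1 higher (0.194%). In the C1-14 library and the C1-27 library of 4 h 6 genes each passed the limit. With C1-14 SCD (1.42-fold) and FASN (1.66-fold) were called higher by fold (3.71%) and not by edgeR (0.132%). With C1-27 at 4 h none was called (0.457% of all genes higher by fold). The list was chosen with earlier results of these data known, so nothing is read from these counts. SCD, the stearoyl-CoA desaturase, was at 3.07 and 2.36 RPKM in DMSO, 12.4 with siGSTO1, 7.50 and 2.31 with C1-27 at 24 h and 4 h, and 3.84 with C1-14, so here too the 24 h libraries were the highest. LPIN1, a phosphatidate phosphatase, was at 0.297 and 0.262 RPKM in DMSO, 0.915 and 0.722 in the 24 h libraries of siGSTO1 and C1-27, 0.275 with C1-27 at 4 h and 0.273 with C1-14. SREBF1, which encodes SREBP1, was at 1.71 and 0.994 RPKM in DMSO, 2.87 with siGSTO1, 1.8 and 1.06 with C1-27 at 24 h and 4 h, and 1.1 with C1-14, so that siGSTO1 stood clear of the DMSO pair and C1-27 at 24 h lay only just above DMSO library 1.

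Promoter sequence was not used to choose the genes. RefSeq windows of GRCh38.p14, from 250 bases before to 50 after a start site, were found for 27 of the 30 genes, all but ACAT2, FDFT1 and SQLE. They were searched on both strands for the NF-Y box CCAAT, the Sp1 box GGGCGG, the E-box CACGTG and a core sterol regulatory element, TCACNCCAC. CCAAT was in the windows of 19 of the 27 genes (70.4%), against 34.6% of all 35116 windows and 43.5% of the 9829 tested genes with a window. GGGCGG was found for 23 (85.2%, against 45.0% of windows and 76.0% of tested genes), CACGTG for 4 (14.8%, against 7.26% and 12.4%) and TCACNCCAC for SREBF2 alone (3.70%, against 1.13% and 1.48%). Of the 17 genes with a window that were at 1.4-fold or more in either 24 h library 15 held CCAAT, all but CYP51A1 and NPC1, and of the 10 that were not, 4 did (FDPS, NSDHL, EBP and SOAT1). GGGCGG was held by 17 and 6 genes of these groups, CACGTG by 3 and 1, and TCACNCCAC by 1 and 0. The groups were formed by folds known when the genes were picked. No motif share was counted for all genes past 1.4-fold, so nothing is read from this split. A gene may have several windows, and these matches are of letters, not of bound factors.

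Of the genes called by edgeR, FDFT1 had no window and none of MYLIP is shown. The windows of 4 other genes called by edgeR are shown, among them the window of SREBF2 with the sterol element. They are read 5′ to 3′ on the strand of the gene, and capitals mark TCACNCCAC and CCAAT, the latter written ATTGG where it lies on the other strand. They are SREBF2 at chr22:41832855-41833154 (plus strand), INSIG1 at chr7:155297628-155297927 (plus), STARD4 at chr5:111512486-111512785 (minus) and MSMO1 at chr4:165327419-165327718 (plus), in GRCh38.p14 and so not comparable with the hg19 positions of the gene counts.
SREBF2: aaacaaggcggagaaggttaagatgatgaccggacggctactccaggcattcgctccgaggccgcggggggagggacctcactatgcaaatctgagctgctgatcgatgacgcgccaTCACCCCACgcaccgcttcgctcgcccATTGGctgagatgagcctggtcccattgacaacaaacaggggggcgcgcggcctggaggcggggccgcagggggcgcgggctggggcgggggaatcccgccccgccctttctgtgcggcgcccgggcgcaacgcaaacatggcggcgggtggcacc
INSIG1: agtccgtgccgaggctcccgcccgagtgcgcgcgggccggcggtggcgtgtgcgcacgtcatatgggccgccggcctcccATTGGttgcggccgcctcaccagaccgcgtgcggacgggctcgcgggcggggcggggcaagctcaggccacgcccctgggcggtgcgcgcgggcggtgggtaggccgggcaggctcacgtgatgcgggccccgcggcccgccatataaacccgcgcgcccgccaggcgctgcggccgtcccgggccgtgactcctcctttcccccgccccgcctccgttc
STARD4: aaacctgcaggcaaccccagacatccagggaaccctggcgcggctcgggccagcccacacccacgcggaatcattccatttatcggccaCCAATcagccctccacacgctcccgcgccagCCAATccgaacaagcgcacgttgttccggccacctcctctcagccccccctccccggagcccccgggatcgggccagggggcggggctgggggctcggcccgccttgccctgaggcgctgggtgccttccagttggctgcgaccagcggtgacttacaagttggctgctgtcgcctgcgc
MSMO1: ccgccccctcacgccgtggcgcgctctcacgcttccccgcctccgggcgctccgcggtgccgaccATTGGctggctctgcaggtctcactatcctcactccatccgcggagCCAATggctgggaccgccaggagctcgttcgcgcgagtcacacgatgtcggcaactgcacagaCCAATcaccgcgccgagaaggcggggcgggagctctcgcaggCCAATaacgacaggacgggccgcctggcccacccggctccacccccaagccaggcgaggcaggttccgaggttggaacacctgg
In SREBF2 the sterol element begins 133 bases before the start site and the NF-Y box 106 bases before it. INSIG1 has 1 NF-Y box, 170 bases before the start. STARD4 has 2, at 161 and 130 bases, and MSMO1 has 4, at 185, 139, 76 and 34 bases before the start.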

How the data were processed

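Bru-seq libraries of HCT116 cells were grouped by the treatment and time in their labels. The deposited files hold 1 row per gene and strand, and only sense rows were used. The authors' expected counts are reads over exons and introns, rounded here for count tests. The deposited files also hold a signal, those counts divided by gene length, which no step used. For RPKM the authors scaled reads by gene length and mapped reads. Per the submitters' processing notes CASAVA 1.8.2, Bowtie 0.12.8, TopHat 1.4.1 and bedtools 2.16.2 were used with hg19, and the counting of reads shared by overlapping genes is not given in the sources used here. Depth was lowest in DMSO library 1 (18112861 sense counts) and siGSTO1 (20214413), and highest in DMSO library 2 (32906297) and C1-27 at 24 h (36841146). The DMSO libraries differed by more than counting noise and were counted as 2.

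Folds were treated RPKM over the mean DMSO RPKM, with no pseudocount. edgeR 4.0.16 in R 4.3.3 fitted 14431 genes that spanned over 300 bp and had 10 or more counts in 2 or more libraries, in 5 groups with TMM scaling (1 residual degree of freedom, common dispersion 0.0381). A standard error is the size of the log2 fold change divided by the square root of F. The alternative test was that of DESeq2 1.42.0. Tables were made with Python 3.11.15, pandas 2.3.3 and scipy 1.17.1, and figures with matplotlib 3.10.9. The edgeR steps were tested on simulated data.

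The genes and lists were chosen with earlier results of these data known. Every gene past 1.4-fold was named, with the 3 nearest to that limit on each side in each 24 h comparison, and from other lists the called genes and up to 3 with the largest siGSTO1 fold. Called genes of those lists outside these 3 were named after their values were seen. Some genes of the pathway are not reported here. Scaling, pseudocount, RPKM limit, fold limit, tool and each DMSO library were varied. The older dispersion setting of edgeR and all alternatives for the ratios between treated libraries were added after seeing the data.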

Additional observations from a re-analysis of the deposited data

Results flagged for a closer look

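Of the 30 sterol genes, 6 lay above both DMSO libraries with C1-27 at 24 h and below both with C1-27 at 4 h. The difference between the times was not tested, since each had 1 library, and both times are set against the same DMSO libraries. INSIG1 had the widest gap, at 3.13-fold at 24 h and 0.873-fold at 4 h. HSD17B7 was at 1.75 and 0.866-fold, on few counts, SQLE at 1.64 and 0.911-fold, CYP51A1 at 1.4 and 0.918-fold, MYLIP at 1.38 and 0.959-fold, and SOAT1 at 1.18 and 0.926-fold. Of the 14431 genes tested, 1424 (9.87%) showed the same pattern.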

How the results depend on the processing

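With a fold limit of 2 the number of sterol genes called higher was 7 with siGSTO1 (1.84% of all genes), 6 with C1-27 at 24 h (0.379%), 0 with C1-27 at 4 h (0.0652%), 0 with C1-14 (0.976%), 4 in the ratio of C1-27 at 24 h to 4 h (0.334%), and 0 in the ratio of siGSTO1 to C1-27 at 24 h (1.89%), where 0 were also lower (0.391%). With a pseudocount of 0.1 RPKM the single calls with C1-27 at 4 h and with C1-14 were lost (0 and 0). With DESeq2's size factors 1 gene was called lower with siGSTO1, and with these or TMM factors 2 were lower in siGSTO1 than in C1-27 at 24 h. DESeq2's Wald test called 2 genes with siGSTO1 and 2 with C1-27 at 24 h. Leaving out each DMSO library in turn gave 12 to 13 genes higher with siGSTO1, 13 to 15 with C1-27 at 24 h, 0 to 1 with C1-27 at 4 h (0 without DMSO library 1) and 1 to 2 with C1-14 (2 without DMSO library 1), and 0 to 1 lower with C1-27 at 4 h (1 without DMSO library 2). The share of all genes called was not counted with the pseudocount, other scaling factors or a left-out DMSO library. Nothing is read from the counts under those settings. Of 600 folds of single genes recomputed under the alternatives none changed direction while called, and 88 moved by more than the SD of the DMSO pair, under another scaling or with the pseudocount. That count is no measure of stability. FDPS with siGSTO1 went from 1.24 to 1.65 without DMSO library 1 and was not counted. Leaving out 1 of the DMSO pair can hardly move a fold by more than the SD of that same pair, for any gene. EBP with C1-27 at 4 h went from 1.02 to 1.04 with TMM and was counted, because its DMSO libraries nearly agreed. Other causes were not tested. Without either DMSO library no residual degree of freedom is left, so edgeR was not run there. No paired analysis was possible because only DMSO had more than 1 library. Weakly transcribed genes (TM7SF2 with 10 to 34 counts per library, HSD17B7 with 26 to 101) are limited by depth.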

Other observations

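Antisense reads over the sterol genes varied widely. Summed over the 6 libraries, HSD17B7 had 238 antisense and 351 sense counts, TM7SF2 58 and 117, ACAT2 842 and 2596, GGPS1 1005 and 4886, SQLE 824 and 6160, and CYP51A1 1337 and 12212. DHCR7, MVK and LSS had 0 antisense counts beside 1962, 1762 and 1775 sense counts. INSIG1 had 1 beside 3182, and HMGCS1 had 3 beside 10023.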
